A study of Mus musculus with 12 samples.

Results

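The genes described here are 10 genes of the unfolded protein response (UPR), measured as mRNA in EL-4 T cells that were stimulated with or without new protein synthesis. They were taken by symbol, as every probe set whose annotation held 1 gene symbol equal to Hspa5, Hsp90b1, Calr, Sdf2l1, Dnajb9, Pdia4, Creld2, Herpud1, Edem1 or Xbp1. All 10 were found among the 19938 genes with such a probe set, on 11 of the 35399 probe sets of the table, since Pdia4 had 2. The values were log2 robust multichip average (RMA) values from Affymetrix Mouse Gene 1.0ST arrays, on which a difference of 1 is a 2-fold difference in signal.

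The EL-4 line is a mouse T lymphoma line, and 4 groups of 3 biological replicates were profiled. The CHX-treated P/I-stimulated cells had 30 min of cycloheximide (CHX), a blocker of translation, at 10 μg/ml and then phorbol 12-myristate 13-acetate at 10 ng/ml with ionomycin at 1 μM (P/I) for 4 h. The P/I-stimulated cells had dimethyl sulfoxide (DMSO), the solvent, for 30 min and then the same 4 h of P/I. The CHX-treated unstimulated cells are labelled with the CHX pretreatment of 30 min and 0 h of P/I, and the unstimulated cells with that of DMSO and 0 h of P/I. Whether these cells were then held in CHX or DMSO for longer is not given in the sources used here, so the total CHX exposure of the unstimulated cells is unknown. If they were taken at 0 h, a P/I effect cannot be told apart from 4 h of further culture, nor a CHX effect during P/I from one of the longer exposure to CHX. A gene was called at an adjusted p under 0.1 (limma, Benjamini-Hochberg over 23410 tested probe sets), the false discovery rate that the study's methods use.

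The UPR is the programme by which a cell answers unfolded protein in the endoplasmic reticulum (ER). The 3 sensors of the ER membrane are IRE1, which splices the Xbp1 mRNA, PERK, which lowers translation and favours that of ATF4, and ATF6, which is cut in the Golgi to free a transcription factor. Their targets encode chaperones, folding enzymes and the machinery that returns misfolded protein to the cytosol, and in lymphocytes the programme is best known for the growth of the secretory apparatus in plasma cells.

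All 9 measured T cell marker genes had a mean above 5.63, the median of all values, and these means lay between 7.87 and 12.40. Of 6 B cell, 7 plasma cell, 7 myeloid and 6 fibroblast markers, 1, 2, 1 and 3 did. The median of the plasma cell list was 4.94 in CHX-treated P/I-stimulated, 4.97 in P/I-stimulated, 4.89 in CHX-treated unstimulated and 4.95 in unstimulated cells, and its highest gene was the coactivator Pou2af1, at 9.47. The median of the T cell list was 10.82, 10.37, 10.07 and 10.03 in the same order of groups. With P/I in DMSO-treated cells 3 of the 7 plasma cell and 4 of the 9 T cell markers were called in either direction. With CHX during P/I 3 and 5 were. Of all tested probe sets, 9.05% were called higher and 8.42% lower with P/I, and 13.2% higher and 12% lower with CHX during P/I. The part of these markers in the results was not tested. Arrays of 1 group correlated at 0.983 to 0.994 over all probe sets. Precision is limited by the number of arrays, and in a population of cells a larger share of responding cells and more mRNA per cell cannot be told apart.

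The promoters of UPR genes are known for the ER stress response element (ERSE), a CCAAT box bound by NF-Y and, after a spacer of fixed length, a CCACG box bound by ATF6 or XBP1. The windows searched ran from 250 bases before to 50 after the annotated start of each gene (RefSeq, GRCm38.p6), on both strands, and each of the 10 genes had 1. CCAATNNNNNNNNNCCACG was found in 4 of the 10 genes, Hspa5, Hsp90b1, Calr and Creld2, and in 0.119% of all 32851 windows. With the last 2 letters free (CCAATNNNNNNNNNCCANN), Herpud1 and Pdia4 joined them, against 1.09% of all windows. The more compact ERSE-II, ATTGGNCCACG, was found in Herpud1 alone among the 10 genes and in 0.0365% of windows. The stretches shown hold an ERSE in 4 genes, an ERSE with free letters in Pdia4 and the ERSE-II in Herpud1. Further ERSE with free letters are not marked. They begin 18 bases before the start in Herpud1, 98 in Hspa5, 172 in Hsp90b1 and 131 in Calr. Capitals mark the fixed letters of the element, which read CGTGG and ATTGG where it lies on the other strand, and each stretch is written on the strand of its gene.
Hspa5 (chr2:34772013-34772055, plus strand, ERSE): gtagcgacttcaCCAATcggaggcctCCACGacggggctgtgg
Hsp90b1 (chr10:86705521-86705668, minus strand, 2 ERSE): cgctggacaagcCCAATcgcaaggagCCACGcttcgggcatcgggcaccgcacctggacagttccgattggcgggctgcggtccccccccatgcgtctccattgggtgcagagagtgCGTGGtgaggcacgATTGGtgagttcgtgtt
Calr (chr8:84847063-84847105, minus strand, ERSE): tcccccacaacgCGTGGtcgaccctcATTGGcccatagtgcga
Creld2 (chr15:88819508-88819550, plus strand, ERSE): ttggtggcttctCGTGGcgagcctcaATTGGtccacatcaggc
Pdia4 (chr6:47813590-47813632, minus strand, ERSE with the last 2 letters free): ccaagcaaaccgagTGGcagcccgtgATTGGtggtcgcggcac
Herpud1 (chr8:94386365-94386399, plus strand, ERSE-II): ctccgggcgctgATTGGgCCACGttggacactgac

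The elements marked in these 6 genes began between 52 and 212 bases before the start. A CCAAT box, which the ERSE and, reversed, the ERSE-II contain, was found in 9 of the 10 genes, all but Xbp1, and in 37.4% of windows. The core of the UPR element, TGACGTG, was found in Hspa5 alone and in 2.01% of windows. The C/EBP-ATF element TTGCATCA, a site of ATF4, was found in Herpud1 alone and in 0.895% of windows. A match is a description of the letters, and the lack of one in Sdf2l1, Dnajb9, Edem1 or Xbp1 says only that these letters are not in this window.

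**Figure D1:**
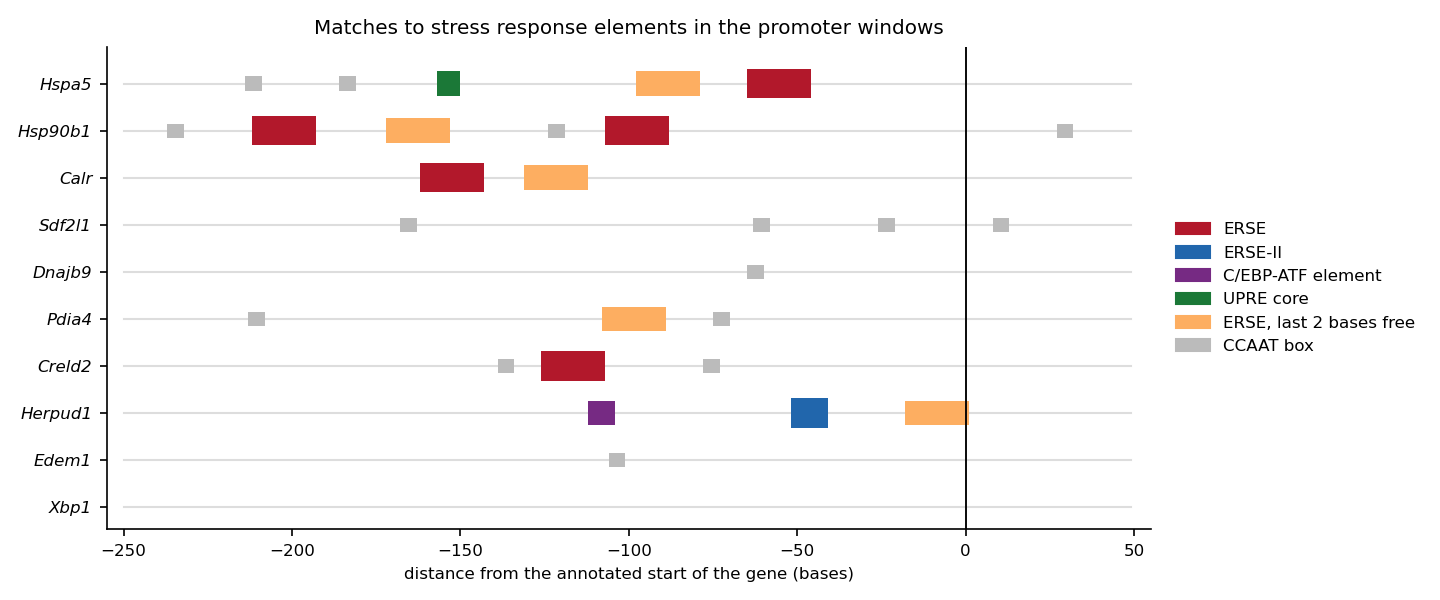
Matches to the 6 motifs in the promoter window of each of the 10 genes, as distance in bases from the annotated start (0), with 250 bases before and 50 after it. ERSE is marked in Hspa5, Hsp90b1, Calr and Creld2 and ERSE-II in Herpud1, while Sdf2l1, Dnajb9 and Edem1 have only CCAAT boxes and Xbp1 none of the 6.

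P/I raised the mRNA of all 10 genes, and CHX during P/I lowered that of all 10. Among all tested probe sets, 9.05% were called higher and 8.42% lower with P/I in DMSO-treated cells, and 13.2% were called higher and 12% lower with CHX during P/I. The 3 P/I arrays all lay above the 3 unstimulated arrays in 10 of 10 genes, against 12.2% of all tested probe sets. The 3 CHX-treated P/I arrays all lay below the 3 P/I arrays in 10 of 10 genes, against 14.8%. The median log2 difference over the 10 genes was 1.15 for P/I and -1.23 for CHX during P/I, beside -0.03 and 0.01 over all tested probe sets. By these limma calls the 10 genes were secondary response genes, with a call upwards for P/I and downwards for CHX, as were 4.79% of tested probe sets. The 10 genes were chosen with earlier results of these data known, so the comparison with these shares is only descriptive. By the test and the unadjusted p limits of the study's methods, P/I raised 10 and CHX lowered 9, all but Xbp1. Both comparisons use the 3 P/I arrays. The call for P/I was the weakest in Edem1 and the call for CHX the weakest in Xbp1, and both depended on single arrays, as given with these genes.

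**Figure D2:**
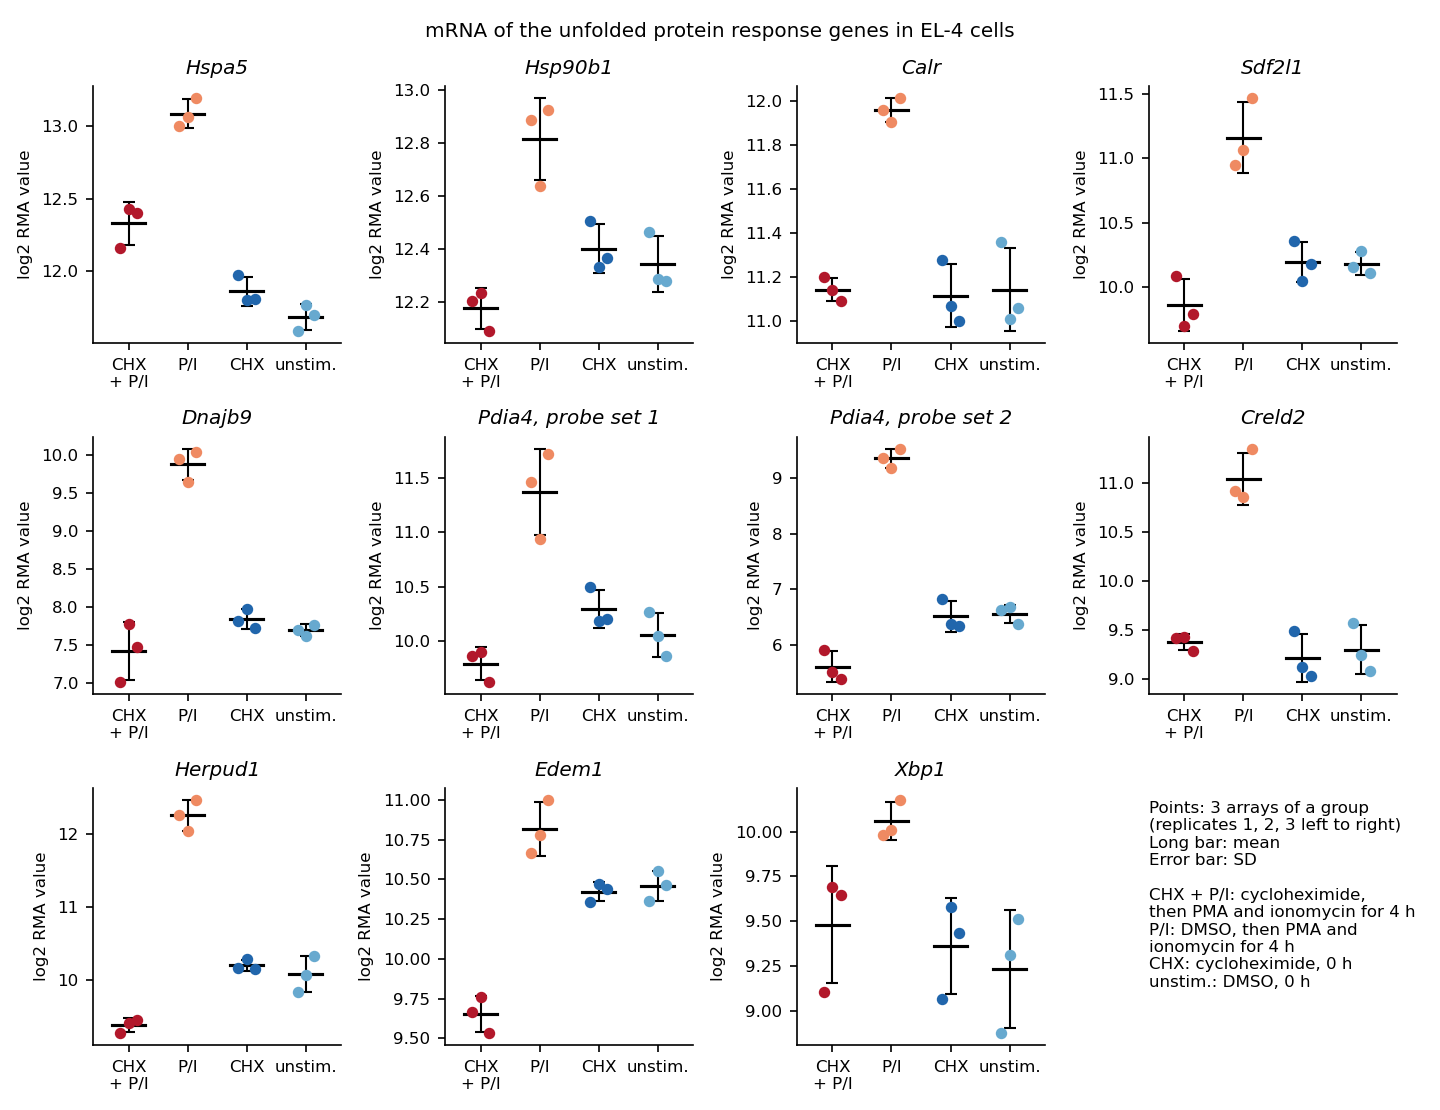
The log2 RMA value of each array (points), with the mean (long bar) and SD (error bar) of the 3 arrays of a group, for each of the 11 probe sets; each panel has its own scale. In every panel the 3 arrays of P/I-stimulated cells lie above those of the other 3 groups, as for Creld2, at 10.86 to 11.36 in P/I-stimulated cells against 9.08 to 9.57 in unstimulated cells.

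Hspa5 encodes BiP, the Hsp70 chaperone of the ER lumen that also holds the sensors inactive. It had 13.00, 13.06 and 13.20 in P/I-stimulated cells, against 11.59, 11.77 and 11.70 in unstimulated cells. The arrays did not overlap, and the difference was 1.40 (SE 0.10, limma adjusted p = 2.29e-06), or 2.64-fold. In CHX-treated P/I-stimulated cells Hspa5 had 12.16, 12.43 and 12.41, which is 1.69-fold below the P/I-stimulated cells (log2 difference -0.75, SE 0.10, limma adjusted p = 0.000165). These arrays lay between the P/I-stimulated and the unstimulated ones without meeting either.

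Hsp90b1 encodes GRP94, the Hsp90 chaperone of the ER. P/I-stimulated cells had 12.89, 12.64 and 12.92, against 12.47, 12.29 and 12.28 in unstimulated cells, a difference of 0.47 (SE 0.10, limma adjusted p = 0.00571) or 1.39-fold. The increase was small, and the arrays did not overlap. In CHX-treated P/I-stimulated cells the values were 12.20, 12.23 and 12.09, 1.56-fold lower than in P/I-stimulated cells (log2 difference -0.64, limma adjusted p = 0.000521).

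Calr encodes calreticulin, the lectin chaperone that holds newly made glycoproteins and binds calcium. It had 11.96, 11.90 and 12.01 in P/I-stimulated cells, against 11.36, 11.01 and 11.06 in unstimulated cells (difference 0.82, SE 0.10, limma adjusted p = 0.000231, 1.76-fold). The CHX-treated P/I-stimulated cells had 11.20, 11.14 and 11.09, 1.76-fold below the P/I-stimulated cells (log2 difference -0.82, limma adjusted p = 0.000155). These values lay within the range of the unstimulated arrays.

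Sdf2l1 and Dnajb9 encode partners of BiP. Dnajb9, or ERdj4, is a J-domain cochaperone, and Sdf2l1 works in a complex with another ER J protein. Sdf2l1 had 10.95, 11.07 and 11.47 in P/I-stimulated cells, against 10.16, 10.28 and 10.11 in unstimulated cells, a 1.97-fold increase (log2 difference 0.98, SE 0.14, limma adjusted p = 0.000667). Its CHX-treated P/I arrays had 10.09, 9.70 and 9.79, below the lowest unstimulated array, and lay 2.47-fold below the P/I-stimulated cells (log2 difference -1.30, SE 0.14, limma adjusted p = 5.85e-05). Dnajb9 moved more. It had 9.95, 9.64 and 10.04 in P/I-stimulated cells, against 7.70, 7.62 and 7.77 in unstimulated cells, which is 4.54-fold (log2 difference 2.18, SE 0.17, limma adjusted p = 5.52e-06) and rank 107 of the 23410 tested probe sets by size. In CHX-treated P/I-stimulated cells it had 7.01, 7.77 and 7.48, or 5.50-fold less than in P/I-stimulated cells (log2 difference -2.46, SE 0.17, limma adjusted p = 1.76e-06). These 3 values had the widest spread of the 4 groups (SD 0.39).

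Pdia4 encodes ERp72, a protein disulfide isomerase, and Creld2 an ER protein known to be induced by ER stress. Pdia4 had 2 probe sets that agreed in direction and differed in size. Probe set 1, the one with the higher mean, stands for the gene. It had 11.46, 10.94 and 11.71 in P/I-stimulated cells, against 10.27, 10.05 and 9.87 in unstimulated cells (difference 1.31, SE 0.18, limma adjusted p = 0.000393, 2.48-fold). Its CHX-treated P/I arrays had 9.86, 9.90 and 9.62, 2.98-fold below the P/I-stimulated cells (log2 difference -1.58, limma adjusted p = 7.03e-05). Probe set 2 had 9.38, 9.18 and 9.53 in P/I-stimulated cells, against 6.63, 6.68 and 6.38 in unstimulated cells, which is 6.98-fold. With CHX during P/I it had 5.91, 5.52 and 5.38, which is 13.6-fold below the P/I-stimulated cells, and it was rank 11 from the bottom of all tested probe sets in that comparison. Which part of the Pdia4 transcript each probe set reads is not given in the sources used here.

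Creld2 had 10.92, 10.86 and 11.36 in P/I-stimulated cells, against 9.57, 9.24 and 9.08 in unstimulated cells, an increase of 3.36-fold (log2 difference 1.75, SE 0.16, limma adjusted p = 2.35e-05). The CHX-treated P/I-stimulated cells had 9.42, 9.43 and 9.28, all within the range of the unstimulated arrays, and 3.18-fold below the P/I-stimulated cells (log2 difference -1.67, SE 0.16, limma adjusted p = 2.37e-05).

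Herpud1 and Edem1 act in ER-associated degradation. Herpud1 is an ER membrane protein that gathers the ubiquitin ligase complex, and Edem1 is a lectin that passes misfolded glycoproteins to it. Herpud1 had 12.27, 12.04 and 12.47 in P/I-stimulated cells, against 9.84, 10.06 and 10.33 in unstimulated cells, a 4.53-fold increase (log2 difference 2.18, SE 0.13, limma adjusted p = 8.69e-07). With CHX during P/I it had 9.27, 9.42 and 9.45, below every unstimulated array and 7.36-fold below the P/I-stimulated cells (log2 difference -2.88, SE 0.13, limma adjusted p = 7.39e-08). It was rank 36 from the bottom of all tested probe sets in this comparison, the furthest of the 10 genes.

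Edem1 showed the smallest increase of the 10 genes with P/I. It had 10.67, 10.78 and 11.00 in P/I-stimulated cells, against 10.37, 10.56 and 10.46 in unstimulated cells, a difference of 0.36 (SE 0.10, limma adjusted p = 0.0336) or 1.28-fold. Without replicate 3 of the P/I-stimulated cells the difference was 0.26 (limma adjusted p = 0.139), without replicate 1 of the unstimulated cells it was 0.31 (limma adjusted p = 0.107), and with the probe sets normalized by quantiles it was 0.28 (limma adjusted p = 0.185), so that the call was lost in each case. The CHX difference of Edem1 was larger than its P/I difference. Its CHX-treated P/I arrays had 9.66, 9.76 and 9.53, 2.24-fold below the P/I-stimulated cells (log2 difference -1.16, SE 0.10, limma adjusted p = 9.08e-06) and below each unstimulated array.

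Xbp1 encodes the transcription factor that IRE1 activates by splicing its mRNA. The probe set gives 1 level per array and does not separate spliced from unspliced mRNA. Xbp1 had 9.98, 10.01 and 10.18 in P/I-stimulated cells, against 8.88, 9.31 and 9.51 in unstimulated cells (difference 0.82, SE 0.19, limma adjusted p = 0.0130, 1.77-fold). In CHX-treated P/I-stimulated cells it had 9.11, 9.69 and 9.65, which is 1.49-fold lower than in P/I-stimulated cells (log2 difference -0.58, SE 0.19, limma adjusted p = 0.0548). Replicate 1 was the lowest array of Xbp1 in each of the 4 groups. Without replicate 1 of the CHX-treated P/I-stimulated cells the CHX difference was -0.39 (limma adjusted p = 0.200), and without replicate 3 of the P/I-stimulated cells it was -0.51 (limma adjusted p = 0.164).

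**Figure D3:**
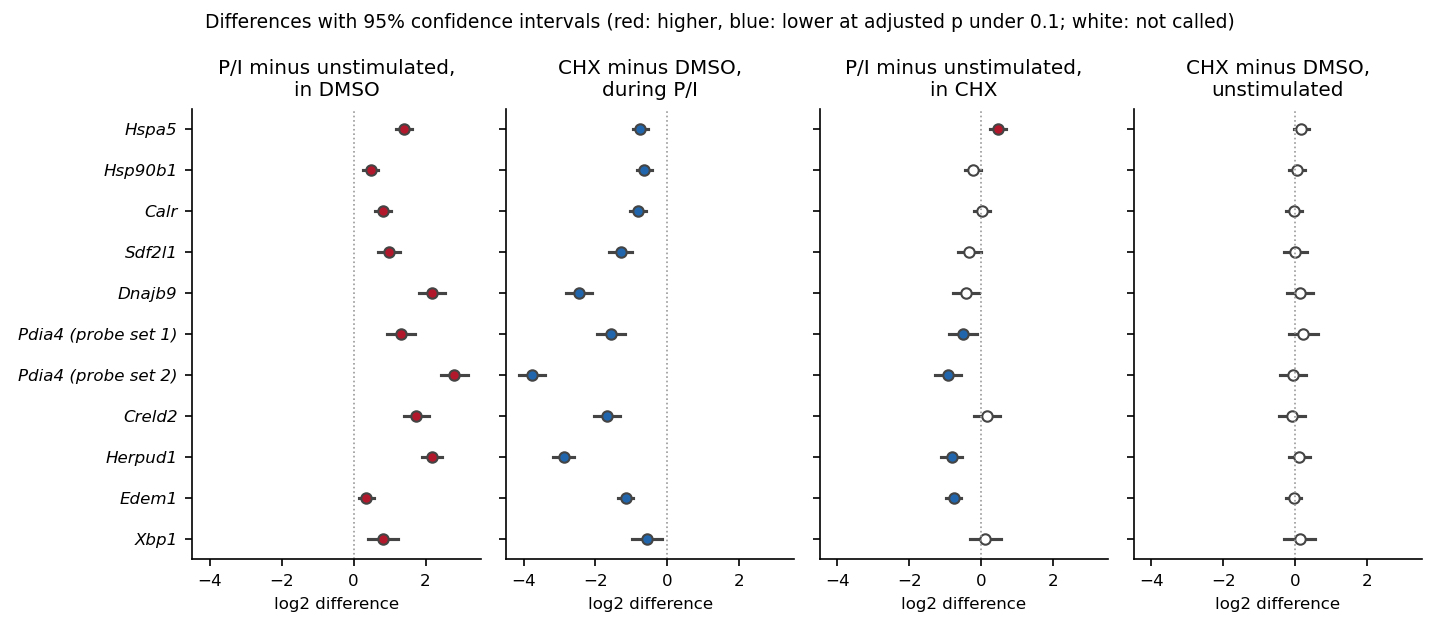
Log2 differences (points) with 95% confidence intervals (lines) of the 11 probe sets in 4 comparisons, with red points called higher, blue points called lower and white points not called at an adjusted p under 0.1. The points lie right of 0 for P/I in DMSO-treated cells, from 0.36 for Edem1 to 2.80 for Pdia4 probe set 2, left of 0 for CHX during P/I, and around 0 for CHX in unstimulated cells.

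In unstimulated cells none of the 10 genes was called for CHX. The limma adjusted p lay between 0.770 and 0.990, and 0 of the 10 had an unadjusted p under 0.05, and the test of the study's methods, after the same adjustment, also called 0, while 7 of all 23410 tested probe sets (0.0299%) were called and 1608 had an unadjusted p under 0.05. The differences lay between -0.09 for Creld2 and 0.24 for Pdia4, with a median of 0.09. Hspa5 had 11.98, 11.80 and 11.81 in CHX-treated unstimulated cells, against 11.59, 11.77 and 11.70 in unstimulated cells. The 95% interval of its difference ran from -0.03 to 0.39. The highest upper bound was that of Pdia4 probe set 1, whose interval ran from -0.16 to 0.63. The lowest lower bound was that of Creld2, from -0.45 to 0.27. With 3 arrays a group, changes within a gene's interval are not excluded.

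With CHX present in both groups, P/I left 1 of the 10 genes higher and 3 lower, while 10.2% of all tested probe sets were called higher and 11.6% lower. The gene that rose was Hspa5, with 12.16, 12.43 and 12.41 in CHX-treated P/I-stimulated cells, against 11.98, 11.80 and 11.81 in CHX-treated unstimulated cells (difference 0.47, SE 0.10, limma adjusted p = 0.00514, 1.38-fold). Herpud1 fell, to 9.27, 9.42 and 9.45 in CHX-treated P/I-stimulated cells, against 10.17, 10.29 and 10.16 in CHX-treated unstimulated cells (difference -0.82, SE 0.13, limma adjusted p = 0.00101, 1.77-fold). Edem1 fell as well, to 9.66, 9.76 and 9.53, against 10.36, 10.47 and 10.44 in CHX-treated unstimulated cells (difference -0.77, SE 0.10, limma adjusted p = 0.000243, 1.71-fold). The arrays of the compared groups lay wholly apart in Hspa5, upwards, and in Herpud1, Edem1, Pdia4 and Hsp90b1, downwards. Such separation was not counted over all tested probe sets in this comparison.

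Pdia4 was the third that fell in this comparison. Its probe set 1 had 9.86, 9.90 and 9.62 in CHX-treated P/I-stimulated cells, against 10.50, 10.19 and 10.21 in CHX-treated unstimulated cells (difference -0.50, SE 0.18, limma adjusted p = 0.0820). This call was lost without any 1 of 7 arrays, with limma adjusted p between 0.109 and 0.256, and after median centring of the arrays (0.134). Probe set 2 gave -0.91 (limma adjusted p = 0.00237). The 6 genes with no call were Dnajb9 (-0.42, limma adjusted p = 0.124), Sdf2l1 (-0.34, 0.153), Hsp90b1 (-0.23, 0.150), Creld2 (0.17, 0.601), Xbp1 (0.12, 0.776) and Calr (0.03, 0.914). Dnajb9 was called lower without replicate 2 of the CHX-treated P/I-stimulated cells (-0.60, limma adjusted p = 0.027), as was Sdf2l1 without their replicate 1 (-0.45, limma adjusted p = 0.0668). Sdf2l1 was also called without replicate 3 of the P/I-stimulated cells (limma adjusted p = 0.0832), and Hsp90b1 without their replicate 2 (limma adjusted p = 0.0952) and with a variance trend in limma (adjusted p = 0.0789).

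The difference between the P/I effects was tested as an interaction, the P/I effect in CHX-treated cells minus that in DMSO-treated cells. It was negative and past the threshold in 9 of 10 genes, against 7.62% of all tested probe sets, with a median of -1.22 beside 0.05. With probe set 1 for Pdia4, the values of these 9 ran from -0.70 for Hsp90b1 (SE 0.14, limma adjusted p = 0.00728) to -3.01 for Herpud1 (SE 0.19, limma adjusted p = 3.02e-06). Hspa5 had -0.93 (SE 0.14, limma adjusted p = 0.00135), and Pdia4 probe set 2 had -3.72 (SE 0.24). For Xbp1 the interaction was -0.70 (SE 0.27, limma adjusted p = 0.148), with a 95% interval from -1.30 to -0.11. It was past the threshold without replicate 1 of the CHX-treated unstimulated cells (-0.85, limma adjusted p = 0.0879). The Xbp1 interaction was also past it in a fit with a term for the replicate number, given with the dependence on processing.

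The 10 genes also varied together over the 12 arrays. Of the 45 pairs of genes, Pearson's r was lowest for Edem1 and Hspa5, at 0.267, had a median of 0.852 and was highest for Pdia4 and Hsp90b1, at 0.990. These correlations describe 12 arrays in 4 groups and hold the group differences given above. The order of the 4 group means set Edem1 and Hspa5 apart, with CHX-treated P/I-stimulated cells lowest of all in Edem1 (9.65 ± 0.12, SD, n = 3) and above both unstimulated groups in Hspa5 (12.33 ± 0.15, SD, n = 3).

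Among other genes of the ER and its stress response, 123 of 128 on 7 lists had a probe set with 1 symbol. With P/I in DMSO-treated cells 57 of the 123 were called higher and 3 lower, and with CHX during P/I 13 were higher and 61 lower. Their median differences were 0.29 and -0.32. The shares of all tested probe sets were 9.05% higher and 8.42% lower with P/I, and 13.2% higher and 12% lower with CHX during P/I. The counts of each list below stand beside the same shares. In unstimulated cells CHX changed 0 of the 123 by limma, with 10 at an unadjusted p under 0.05, and the gene with the largest difference among those named from the lists was Ddit4, an inhibitor of mTORC1, at 1.14 (SE 0.27, limma adjusted p = 0.371). The interaction was called lower in 50 and higher in 3 of the 123, against 7.62% of all tested probe sets called lower. For CHX in unstimulated cells 0.0299% of all tested probe sets were called.

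Of the sensors and their transcription factors, 3 of 10 were higher and 0 lower with P/I, and 3 were higher and 3 lower with CHX during P/I. Creb3l2, an ER-bound factor of the ATF6 kind, rose with P/I (9.42 ± 0.22 in P/I-stimulated cells and 7.27 ± 0.19 in unstimulated cells, SD, n = 3 each) and fell by 1.82 with CHX during P/I (limma adjusted p = 2e-05). Ern1, which encodes IRE1α, rose by 0.70 with P/I (SE 0.24, limma adjusted p = 0.0763) and by a further 0.68 with CHX during P/I (limma adjusted p = 0.0663). The NF-Y subunits Nfya and Nfyc were likewise higher with CHX during P/I, by 0.36 and 0.71. Eif2ak3, which encodes PERK, had a P/I difference of 0.22 (limma adjusted p = 0.580) and fell by 1.34 with CHX during P/I (limma adjusted p = 0.000366). For Atf6 the differences were -0.07 with P/I and 0.13 with CHX during P/I (limma adjusted p = 0.857 and 0.693).

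Of the PERK-ATF4-CHOP branch, 8 of 11 genes were higher and 0 lower with P/I, and 5 were lower and 2 higher with CHX during P/I. The ATF4 targets Sesn2, Chac1 and Trib3 rose with P/I by 2.11, 2.07 and 1.53 and fell with CHX during P/I, with differences of -2.46, -3.19 and -3.30. Atf4 itself rose with P/I (10.38 ± 0.05 in P/I-stimulated cells and 9.43 ± 0.15 in unstimulated cells, SD, n = 3 each) and had a CHX difference of 0.09 during P/I (SE 0.12, limma adjusted p = 0.750). Ppp1r15a, or GADD34, which restores translation by directing a phosphatase to eIF2α, rose with P/I by 1.53 and with CHX during P/I by 0.74 (limma adjusted p = 0.0178). Ddit3, which encodes the transcription factor CHOP, rose with P/I by 2.99 (SE 0.45, limma adjusted p = 0.000741), and its CHX difference during P/I was -1.06 (SE 0.45, limma adjusted p = 0.130).

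Of 25 other ER chaperones and folding enzymes, 11 were higher and 0 lower with P/I, and 15 were lower and 3 higher with CHX during P/I. Ero1b, an oxidase that recharges disulfide isomerases, had 8.34 ± 0.17 in P/I-stimulated cells and 6.31 ± 0.05 in unstimulated cells (SD, n = 3 each), and fell by 1.72 with CHX during P/I (limma adjusted p = 8.83e-07). The P/I differences of the BiP cochaperone Dnajb11, the secreted stress factor Manf, the disulfide isomerase Pdia6 and the BiP exchange factor Hyou1 were 1.16, 1.30, 0.95 and 1.44, and their CHX differences during P/I -1.10, -1.33, -1.15 and -1.27. These 5 genes had the pattern of the 10, with a call in each comparison. Dnajc1 and Txndc11 also rose with P/I, by 0.67 and 0.82. Txndc11 had a CHX difference of -0.48 during P/I (limma adjusted p = 0.0395), also with a call in each comparison. Dnajc1 had a CHX difference of 0.03 (limma adjusted p = 0.930).

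In ER-associated degradation 10 of 21 genes were higher and 1 lower with P/I, and 9 were lower and 3 higher with CHX during P/I. Sel1l, the adaptor of the ligase complex, had 11.22 ± 0.31 in P/I-stimulated cells and 9.53 ± 0.04 in unstimulated cells (SD, n = 3 each), and fell to 8.89 ± 0.16 in CHX-treated P/I-stimulated cells (SD, n = 3). The derlins Derl3 and Derl2, which form part of the retrotranslocation channel, rose with P/I by 1.32 and 0.63 and fell with CHX during P/I, with differences of -1.18 and -1.06. The ubiquitin ligase Syvn1, or HRD1, rose by 1.60 with P/I and fell by 1.33 with CHX during P/I. Ube2g2, a ubiquitin conjugating enzyme, rose with P/I by 0.77 and with CHX during P/I by 0.35 (limma adjusted p = 0.0935). Edem3, a relative of Edem1, had a P/I difference of 0.13 (limma adjusted p = 0.671) and fell by 1.07 with CHX during P/I (limma adjusted p = 0.000175).

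Of 22 genes of the translocon, the signal peptidase and the signal recognition particle, 13 were higher and 0 lower with P/I, and 14 were lower and 0 higher with CHX during P/I. Among them were the receptor subunit Srprb (0.70 with P/I and -0.51 with CHX during P/I), Ssr3 (0.59 and -0.66) and the signal peptidase subunits Spcs3 (0.31 and -0.96) and Sec11c (0.43 and -0.70), each past the threshold in both comparisons. In ER-Golgi transport 8 of 19 genes were higher and 1 lower with P/I, and 6 were lower and 1 higher with CHX during P/I. The coat proteins Sec23b and Sec24a rose with P/I by 0.68 and 1.00 and had CHX differences of -0.01 and -0.03 during P/I (limma adjusted p = 0.976 and 0.922), whereas the cargo receptor pair Mcfd2 and Lman1 fell with CHX during P/I, Mcfd2 by 0.99 and Lman1 to 9.34 ± 0.24 in CHX-treated P/I-stimulated cells, against 10.34 ± 0.19 in P/I-stimulated cells (SD, n = 3 each). Of 15 genes of N-glycosylation, 4 were higher and 1 lower with P/I, and 9 were lower and 1 higher with CHX during P/I, among them the oligosaccharyltransferase subunits Stt3b (-0.59) and Rpn1 (-0.59) as lower. Ganab, a glucosidase subunit, fell by 0.46 with P/I and rose with CHX during P/I by 0.32.

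**Figure D4:**
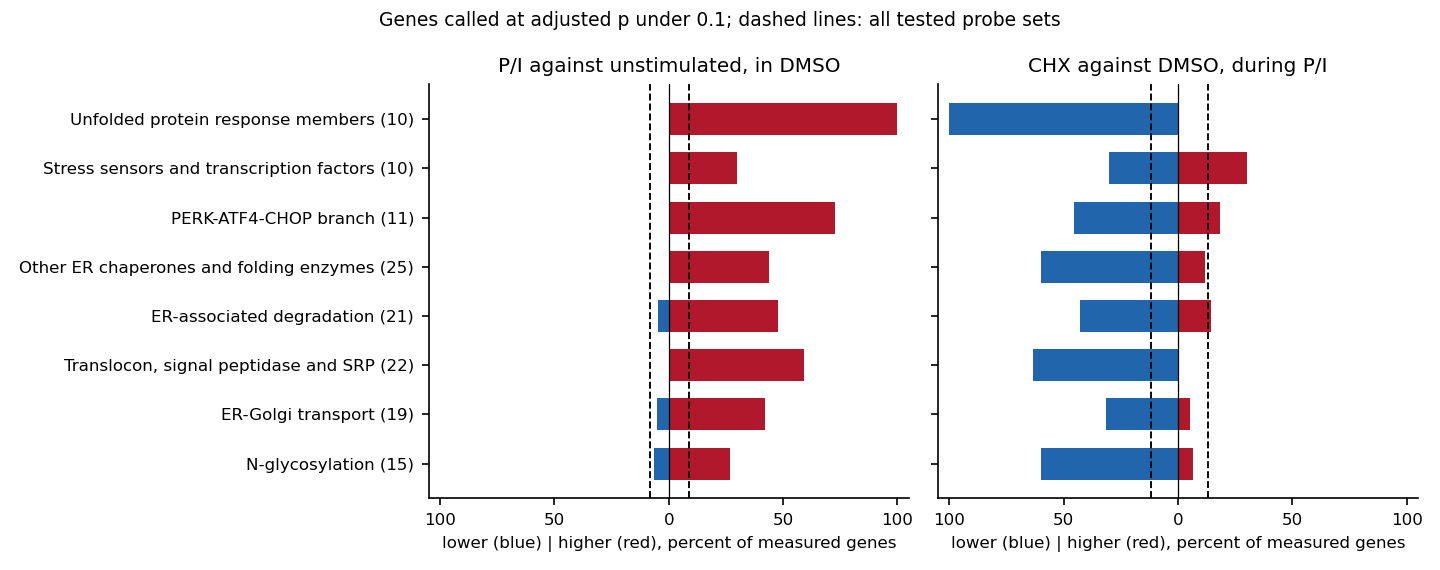
Percent of measured genes called higher (red, right of 0) or lower (blue, left of 0) in the 10 genes and the 7 lists, with the number measured in parentheses and the share of all tested probe sets as dashed lines. With P/I, 10 of the 10 genes were higher, beside 13 of 22 in the translocon list and 4 of 15 in N-glycosylation.

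The genes whose values over the 12 arrays were most like the mean standardised profile of the 10 were sought among 4879 others with an SD of at least 0.3. In order, they were Atp2a2 (Pearson's r = 0.995), Plcxd2 (0.993), Jak2 (0.990), Dusp22 (0.988), Rab11fip3 (0.987), Calcrl (0.986), Pdia6 (0.984), Camk1d (0.984), Smim3 (0.983) and Pgap1 (0.982). Atp2a2 encodes SERCA2, the calcium pump of the ER membrane. It had 12.28 ± 0.11 in P/I-stimulated cells and 11.48 ± 0.06 in unstimulated cells (SD, n = 3 each), and 11.37 ± 0.10 in CHX-treated P/I-stimulated cells. The tyrosine kinase Jak2 moved further, with 11.51 ± 0.34 in P/I-stimulated cells and 8.35 ± 0.12 in unstimulated cells (SD, n = 3 each), and 7.88 ± 0.17 in CHX-treated P/I-stimulated cells. Likeness here is a ranking over 12 arrays in 4 groups, with no test.

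Genes outside the 10 with the same promoter elements were looked up after the values of the 10 had been seen. Of 15614 tested genes with a window, 21 held an ERSE, which are 4 of the 10 genes and 17 others. Of these 17, 6 were higher and 1 lower with P/I, 6 were lower and 3 higher with CHX during P/I, and 5 had both the increase and the decrease. The 5 were Ero1b, Syvn1, Derl3, Pdia6 and Dnajc3, the last a BiP cochaperone with differences of 0.70 and -0.83. Alg12, a mannosyltransferase of N-glycosylation, rose with P/I by 0.72 and had a CHX difference of -0.02 (limma adjusted p = 0.967), and Canx, which encodes the calreticulin relative calnexin, had a P/I difference of 0.03 (limma adjusted p = 0.903) and fell by 0.32 with CHX during P/I. Of all tested probe sets, 9.05% were called higher and 8.42% lower with P/I, and 12% lower and 13.2% higher with CHX during P/I. Both the increase and the decrease were called in 4.79%. The median differences of the 17 were 0.03 for P/I and -0.01 for CHX during P/I, so the element was found in genes with and without the pattern. Of the 8 genes other than Herpud1 with an ERSE-II, 2 had both calls, Dnajb11 and Rcl1 (1.20 with P/I and -0.87 with CHX during P/I).

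**Figure D5:**
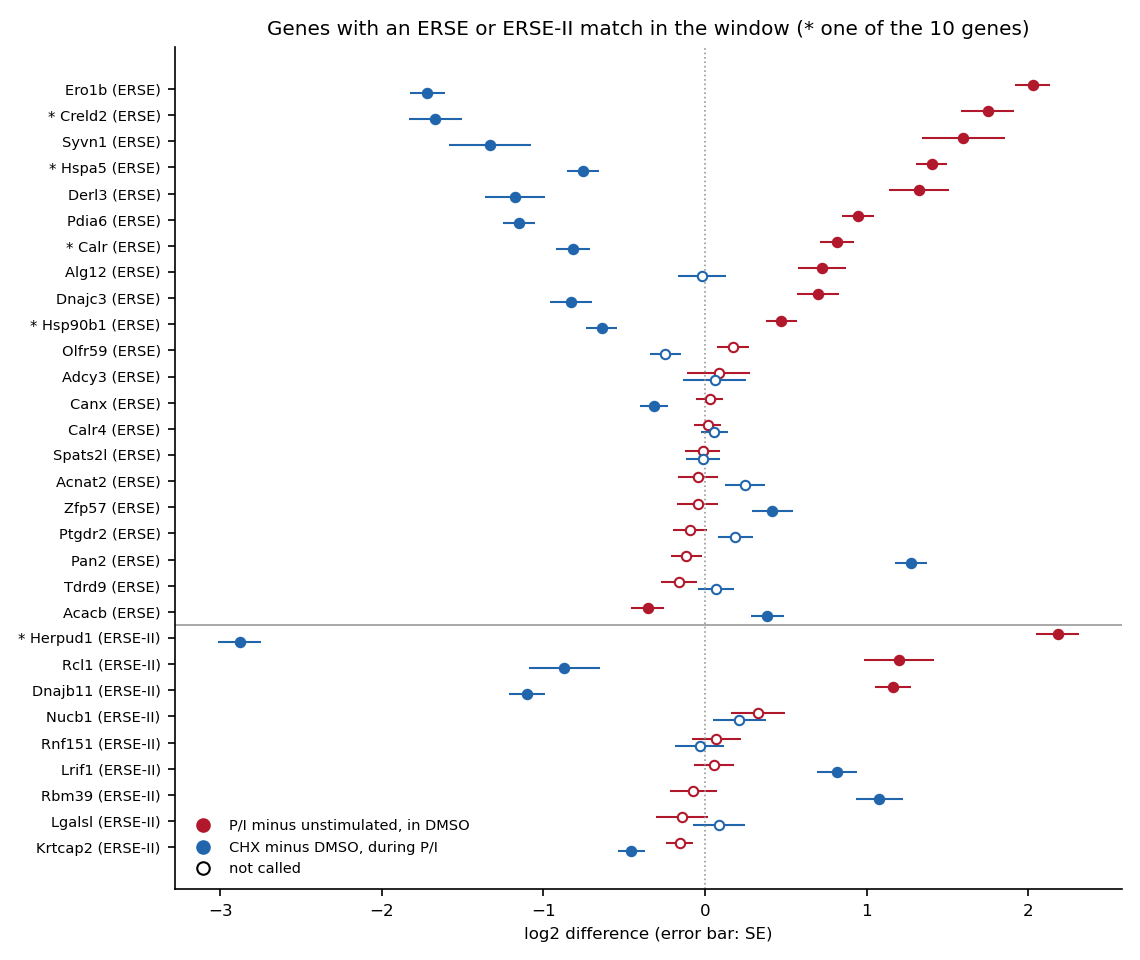
Log2 differences with their SE for the 21 tested genes with an ERSE (above the line) and the 9 with an ERSE-II (below it) in the promoter window, ordered by the P/I difference, with filled points called at an adjusted p under 0.1. The 5 of the 10 genes (stars) lie at 0.47 to 2.18 for P/I and at -2.88 to -0.64 for CHX during P/I, while most of the other 25 genes lie near 0 for P/I.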

How the data were processed

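Messenger RNA of 12 EL-4 cultures was measured on Affymetrix Mouse Gene 1.0ST arrays. The authors deposited log2 values from the robust multichip average (RMA, in Partek per the submitters' processing notes), made with a probe sequence correction of the background and quantile normalization, with no missing value in the table of 35399 probe sets. RMA normalizes the arrays against each other, so differences are relative to the other genes. Probe sets were paired with symbols through the platform annotation, 21789 with 1 symbol, 1621 with several and 11989 with none, and 0 symbols differed when 21698 of them were matched by Entrez identifier. A mean per group was fitted to 12 arrays with limma 3.58.1 in R 4.3.3, on 8 residual degrees of freedom plus a prior of 3.627, and p-values were adjusted by the Benjamini-Hochberg procedure over the 23410 probe sets with a symbol. Where a gene had several probe sets (999 genes), that of highest mean was used. Array medians lay between 5.55 and 5.71, so the probe set values were not on 1 distribution. The fit was tested on simulated data.

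The 10 genes and all lists were chosen with earlier results of these data known. From each list the text names genes among the 3 with the smallest p for P/I, for CHX during P/I and for CHX in unstimulated cells. Atf6, Ddit3, Hyou1, Dnajc3 and Syvn1 were added for their roles after their values were seen, as were the ERSE genes. List genes that lacked a probe set of a single symbol were not analysed here. Alternatives were median centring, quantile normalization of the probe sets, a mean of at least 5, all probe sets, a variance trend, the methods' ANOVA, an adjusted p under 0.05, a replicate block, the mean of several probe sets and leaving out each array. Leaving out all 4 arrays of a replicate number was chosen after seeing the data.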

Additional observations from a re-analysis of the deposited data

Results flagged for a closer look

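The P/I effect differed between CHX-treated and DMSO-treated cells, by the test of the difference itself (the interaction in limma, adjusted p under 0.1), in 9 of the 10 genes. On the log2 scale the effect in CHX-treated cells minus that in DMSO-treated cells was -0.93 for Hspa5, -0.70 for Hsp90b1, -0.79 for Calr, -1.32 for Sdf2l1, -2.60 for Dnajb9, -1.58 for Creld2, -3.01 for Herpud1 and -1.13 for Edem1. Pdia4 had -1.81 on probe set 1 and -3.72 on probe set 2, with SEs of 0.25 and 0.24, so the size of its difference depends on the probe set. For the BiP gene Hspa5 the P/I effect remained positive in CHX-treated cells, at 0.47, while for Herpud1 and Edem1 it was -0.82 and -0.77. The total CHX exposure of the unstimulated cells is not given in the sources used here, and if it ended at 0 h, the length of exposure and P/I cannot be told apart.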

How the results depend on the processing

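Under each alternative that was run for a comparison, the 10 genes kept their direction for P/I, for CHX during P/I and in the interaction, and of the 1220 values of single genes 18 changed sign, all of them differences of CHX in unstimulated cells or of P/I in CHX-treated cells. For CHX in unstimulated cells, median centring gave 0.028 for Edem1 and 0.040 for Calr, and quantile normalization gave -0.029 for Sdf2l1. Leaving out arrays gave ranges of -0.087 to 0.0079 for Edem1, -0.107 to 0.081 for Calr, -0.082 to 0.137 for Sdf2l1, -0.051 to 0.275 for Xbp1 and -0.228 to 0.049 for Creld2, and for P/I in CHX-treated cells -0.028 to 0.305 for Xbp1 and -0.030 to 0.108 for Calr.

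With all probe sets tested, 4538 were lower with CHX during P/I and 4271 lower with P/I in CHX-treated cells, and 0 were called for CHX in unstimulated cells, as with the methods' ANOVA after adjustment. The split for CHX during P/I was 3096 higher and 2818 lower, against 3751 and 2194 after median centring and 4201 and 2669 after quantile normalization. The numbers pair the arrays only as a hint from the data. Every array correlated best with its own number (12 of 12). The deviations of same-numbered arrays correlated at 0.06 to 0.75 in the 18 pairs, 17 of them over 0.1. Whether the arrays of a number share a source was not tested. No label says what the numbers share, and the lowest correlation was under 0.1, so the main fit did not pair the arrays. With a replicate block, 3026 probe sets were lower with P/I in DMSO-treated cells, 119 were called for CHX in unstimulated cells, 2851 were lower in the interaction, and 5 of the 10 genes were lower with P/I in CHX-treated cells, Dnajb9 and Hsp90b1 in addition. The Xbp1 interaction then had a limma adjusted p = 0.0085.

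Leaving out 1 array, or the 4 arrays of 1 number, left 1003 to 2804 probe sets higher and 647 to 2959 lower with P/I in DMSO-treated cells, 1388 to 4032 higher and 1429 to 3560 lower with CHX during P/I, 1097 to 3047 higher and 1076 to 3574 lower with P/I in CHX-treated cells, 465 to 2406 lower in the interaction, and 0 to 751 called for CHX in unstimulated cells, the highest of these without all replicate 1 arrays. Without all replicate 1 arrays, 10 of the 10 genes were higher with P/I, 10 lower with CHX during P/I and 10 lower in the interaction, where Xbp1 had a limma adjusted p = 0.0435. Without all replicate 2 arrays 8 were higher with P/I and without all replicate 3 arrays 7, 9 were lower with CHX during P/I in both cases, 8 and 7 had a lower interaction, and 0 to 1 rose with P/I in the presence of CHX, since Hspa5 lost its call without either (0.39 and 0.40, limma adjusted p = 0.148 and 0.166).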
